A study of Mus musculus with 11 samples.

Results

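The insulin-like growth factor (IGF) system was followed in 10 genes, the ligands Igf1 and Igf2, the receptors Igf1r and Igf2r, and the binding proteins Igfbp2, Igfbp3, Igfbp4, Igfbp5, Igfbp6 and Igfbp7. They were chosen by name from this gene family, with earlier results of these data known. All 10 were found among the 53465 genes of the count files. RNA came from mPFC CRF1+ neurons, cells of the medial prefrontal cortex that carry the type-1 receptor for corticotropin-releasing factor, sorted by fluorescence from adult (over 10 weeks old) male CRF1:GFP reporter mice. The 6 naïve mice (treatment label control) breathed air and were injected with pyrazole, which blocks alcohol dehydrogenase. The 5 withdrawn mice (treatment label ethanol) were injected with ethanol and pyrazole, breathed ethanol vapor intermittently for 5 to 6 weeks, and had then been kept from ethanol for 5 to 8 days. Pyrazole and the reporter were thus common to both groups, each library held the sorted cells of 1 mouse, neurons were enriched on a density gradient before sorting, and the gates used GFP and a pair of dyes for DNA and cell integrity.

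Libraries held between 7351567 and 22244869 counts on genes. A count of 3 equals 0.135 to 0.408 CPM (read counts scaled to library size), a floor that covers counting error only. Unlike the other CPM values, this floor does not include the normalization factors between libraries. Crhr1, the gene of the CRF1 receptor, was at 68.7 to 117.9 CPM in naïve and 41.4 to 134.7 CPM in withdrawn mice. Slc17a7, the vesicular glutamate transporter of cortical excitatory neurons, was at 895 CPM or more in each naïve mouse and at 724 CPM or more in each withdrawn mouse. The summed CPM of 7 inhibitory neuron markers varied widely, from 73.2 to 922.4 in naïve and from 28.4 to 664.4 in withdrawn mice. Of these markers 5 were higher in withdrawn mice, whereas Sst had a median of 155.6 CPM in naïve and 0 CPM in withdrawn mice. For withdrawn mice 3, 4 and 5 a second label reads control, and the series' design text gives 5 control and 6 ethanol mice, so results are also given without these 3 mice. Naïve mouse 5, with the fewest genes detected (15585), and withdrawn mouse 2 stood apart from their groups for several of the genes below.

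IGF1 and IGF2 are small secreted proteins related to insulin. Both act on the IGF1 receptor, a tyrosine kinase that signals through adaptor proteins to PI3 kinase and Akt, whereas the IGF2 receptor, which also carries lysosomal enzymes, takes up IGF2 and removes it. Outside cells IGFs are held by binding proteins, which extend their life and keep them from the receptor until proteases such as pappalysin cut the complex. In the brain, IGF1 is known from subsets of interneurons and from microglia, IGF2 and IGFBP2 from the meninges and choroid plexus, and IGFBP7 from the cells of blood vessels.

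In naïve mice the binding proteins led in level per length, given as CPM per kb of exon. Igfbp6 had the highest median, 110.2 CPM per kb (range 58.1 to 222), followed by Igfbp7 with 34.9 CPM per kb (range 3.94 to 65.9). Igfbp5, Igfbp3 and Igfbp4 followed with medians of 6.25, 5.97 and 5.26 CPM per kb, and Igf1r, Igfbp2 and Igf2r with 3.85, 2.92 and 1.93 CPM per kb. The ligands were lowest, Igf1 at a median of 0.639 and Igf2 at 0.0594 CPM per kb. Neighbours in this order overlapped in every case. Igf2r was nonetheless above Igf1, and Igf1 above Igf2, in 6 of 6 naïve mice, while Igfbp5 was above Igfbp3 in only 3 of 6.

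In withdrawn mice Igfbp6 stayed first at a median of 177.7 CPM per kb, and was above Igfbp2 in 5 of 5 mice. Igfbp2 was second, at a median of 37.6 CPM per kb, where it was 7th in naïve mice. Igfbp5 and Igfbp4 were next, with medians of 30.8 and 14.8 CPM per kb, ahead of Igfbp7 with 12.8 CPM per kb. Igf1r, Igf2r, Igf1 and Igf2 took the last places, with medians of 3.19, 2.71, 0.427 and 0.00815 CPM per kb, and among neighbours in this order the ranges of Igf1 and Igf2 alone did not overlap.

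**Figure D1:**
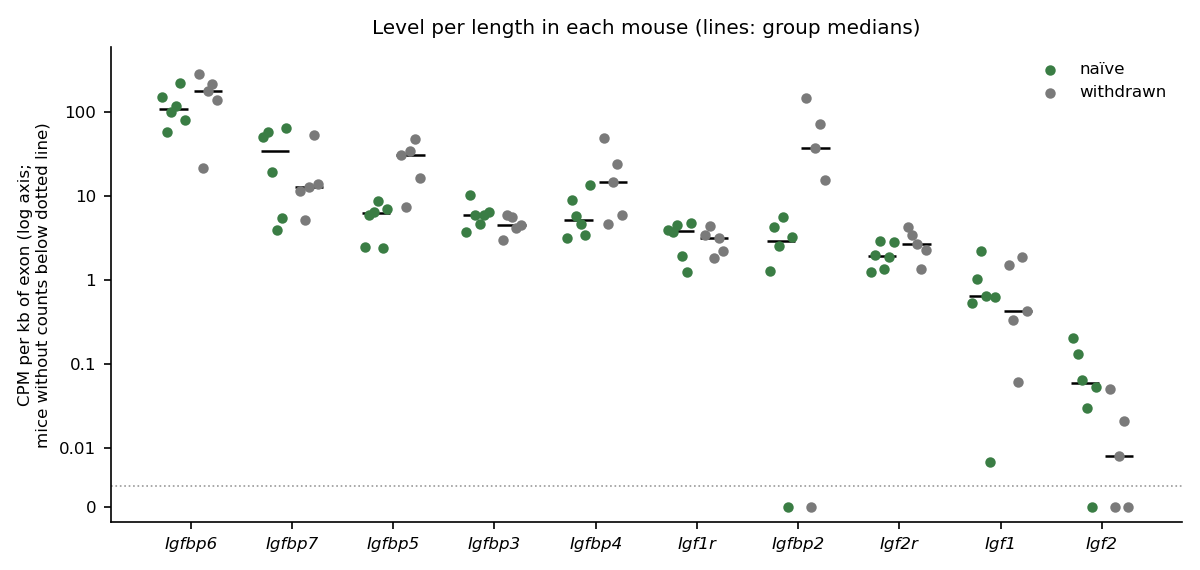
Level per length, in CPM per kb of exon on a log axis, of the 10 genes in each of 6 naïve (green) and 5 withdrawn (grey) mice, with group medians as lines and mice without counts below the dotted line. Igfbp6 has the highest median of both groups (110.2 and 177.7 CPM per kb) and Igf2 the lowest, and Igfbp2 spans from 0 to 147.5 CPM per kb in withdrawn mice.

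Igf1 (ENSMUSG00000020053, chromosome 10 of GRCm38 from 87858265 to 87937042, plus strand) differed widely between mice of the same group. Its level was 0.0677 CPM in the lowest naïve mouse, number 5, where 1 read was counted, with a median of 6.33 and a highest value of 22.0 CPM. In withdrawn mice 1 to 5 it was 15.2, 3.32, 0.606, 18.6 and 4.23 CPM. The groups overlapped fully, and the naïve mean was 8.37 ± 7.41 CPM (SD, n = 6) and the withdrawn mean 8.38 ± 7.96 CPM (SD, n = 5). The log2 fold change of withdrawn against naïve mice was 0.01 with a standard error (SE) of 0.95 (adjusted p = 0.999 from the quasi-likelihood test of edgeR, Benjamini-Hochberg method), a precision that leaves room for sizeable changes in either direction. In bulk RNA of sorted cells, a different number of cells that carry a transcript and a different amount of it per cell cannot be told apart, for Igf1 as for every other gene.

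Igf2 (ENSMUSG00000048583, chromosome 7 from 142650766 to 142666816, minus strand) was close to absent. Naïve mice had 0 counts (mouse 5) to 14 counts, with a median of 4.5, and withdrawn mice 1 to 5 had 4, 0, 1, 1 and 0 counts. The highest withdrawn mouse, at 0.286 CPM, was below the naïve median of 0.340 CPM, and the groups overlapped. An exact permutation test of log2 CPM, two-sided, gave p = 0.0736 (adjusted p = 0.676 over all genes tested), and edgeR did not test the gene, whose counts were too low for its filter. In GENCODE, 3596 of the 5723 exonic bases of Igf2 belong also to Gm49394 on the same strand, which had 0 counts in all 11 mice, and 98 to Igf2os on the opposite strand. Reads shared by genes are not assigned to either by the counting tool as usually run, so the level of Igf2 is uncertain.

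Igf1r (ENSMUSG00000005533, chromosome 7 from 67952827 to 68233668, plus strand), the receptor that signals, was counted in every mouse. It ranged from 21.0 (mouse 5) to 79.7 CPM in naïve mice, with a median of 64.6 CPM, and was 58.4, 73.4, 30.7, 53.5 and 37.7 CPM in withdrawn mice 1 to 5. Every withdrawn mouse lay within the naïve range. The log2 fold change was -0.15 (SE 0.34, adjusted p = 0.966, edgeR), and its direction turned to 0.18 without the 3 mice whose labels conflict.

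Igf2r (ENSMUSG00000023830, chromosome 17 from 12682406 to 12769664, minus strand) had 11.7 to 27.0 CPM in naïve mice, with a median of 18.0 CPM. Withdrawn mice 1 to 5 had 40.3, 32.4, 25.2, 12.6 and 21.1 CPM, so that 2 of 5 were above the highest naïve mouse. The log2 fold change was 0.48 (SE 0.35, adjusted p = 0.852, edgeR).

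**Figure D2:**
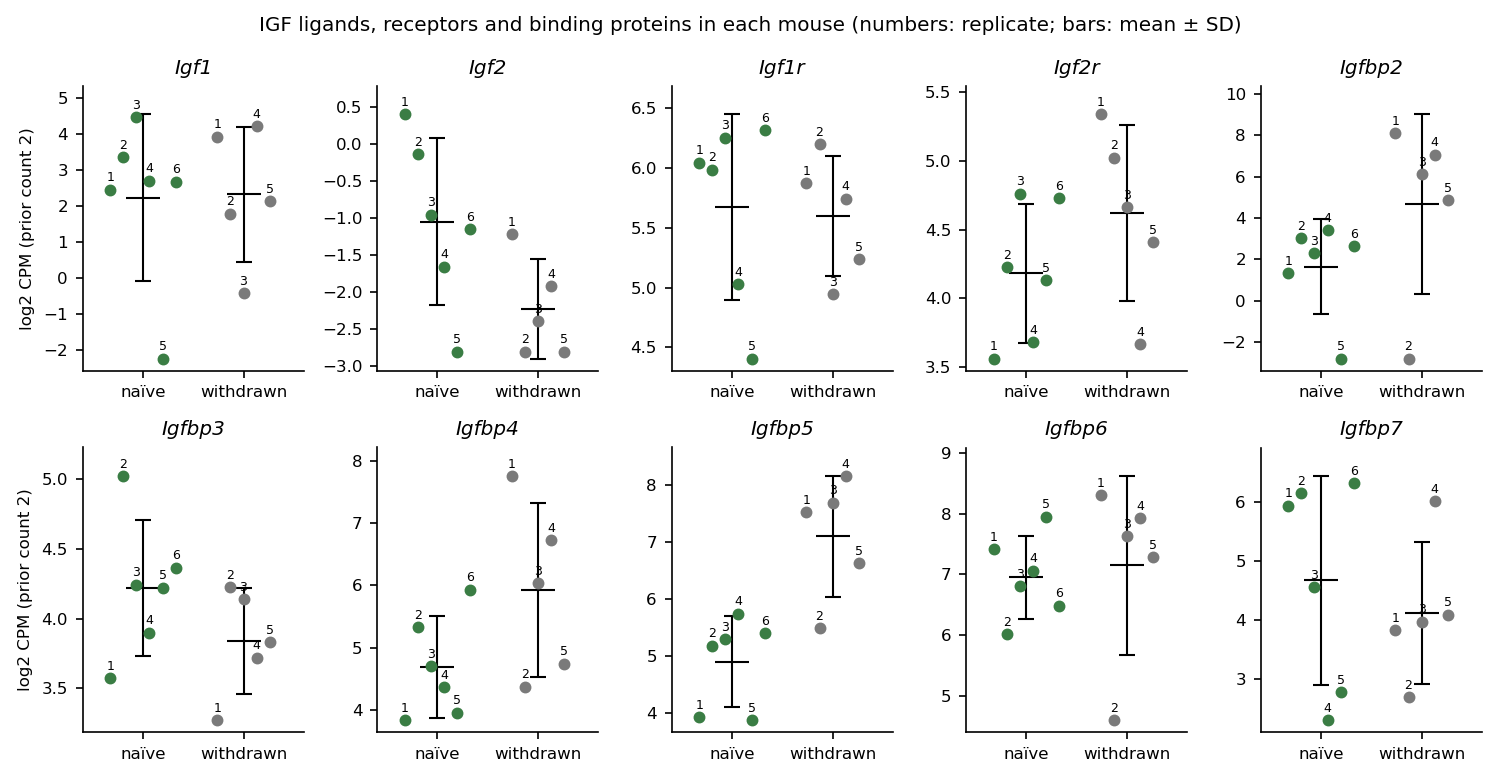
Log2 CPM (prior count 2) of the 10 genes in 6 naïve and 5 withdrawn mice, 1 panel per gene with its own axis, numbers giving the replicate and bars the mean ± SD. Withdrawn mice 1, 3, 4 and 5 lie above all naïve mice for Igfbp2 and Igfbp5, and withdrawn mouse 2 lies within or below the naïve values for these genes and for Igfbp4 and Igfbp6.

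The clearest difference among the 10 genes was in Igfbp5 (ENSMUSG00000026185, chromosome 1 from 72857932 to 72874884, minus strand), a secreted binding protein that also attaches to the extracellular matrix. Naïve mice had 14.5 to 53.4 CPM, with a median of 37.6 CPM, and withdrawn mice 1 to 5 had 184.9, 44.7, 207.4, 287.4 and 98.9 CPM. All withdrawn mice were above the naïve median and 4 of 5 above the highest naïve mouse, with mouse 2 the exception. The means were 33.3 ± 15.5 (SD, n = 6) and 164.7 ± 94.9 CPM (SD, n = 5), and the log2 fold change was 2.31 (standard error 0.45).

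This difference did not pass the adjustment over all tested genes in edgeR (adjusted p = 0.0931), while DESeq2's Wald test called it, with a log2 fold change of 2.36 (SE 0.48, adjusted p = 0.000345). Its unadjusted p of 0.000159 in edgeR was reached by 0.158% of the 17093 tested genes. An exact permutation test of log2 CPM, two-sided, gave p = 0.00433, a value at or below which 0.924% of tested genes lay (adjusted p = 0.468 over all genes).

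Igfbp2 (ENSMUSG00000039323, chromosome 1 from 72824503 to 72852474, plus strand), a binding protein with affinity for both ligands, had the largest fold change of the 9 tested genes. It was at 0 to 10.6 CPM in naïve mice, with a median of 5.39 CPM, and at 272.4, 0, 69.5, 132.9 and 29.0 CPM in withdrawn mice 1 to 5. The 4 withdrawn mice with counts were all above the highest naïve mouse, whereas withdrawn mouse 2, like naïve mouse 5, had 0 counts, which allows up to 0.345 CPM in the former and 0.191 CPM in the latter. In raw counts the 4 mice held 411 to 3806 reads, against at most 182 in a naïve mouse, and mouse 1 alone held 54.1% of the summed CPM of its group.

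The log2 fold change of Igfbp2 was 4.25 (SE 1.15, adjusted p = 0.256, edgeR) and 4.31 in DESeq2 (SE 1.42, adjusted p = 0.0987). On the log scale the exact permutation test gave p = 0.186, and on CPM p = 0.0152. Igfbp2 and Igfbp5 lie tail to tail on chromosome 1, their ends 5457 bases apart, and no other annotated gene shares their exons.

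Igfbp4 (ENSMUSG00000017493, chromosome 11 from 99041244 to 99054392, plus strand), the binding protein best known as a substrate of pappalysin, ranged from 14.1 to 61.0 CPM in naïve mice with a median of 23.2 CPM. Withdrawn mice 1 to 5 had 216.7, 20.6, 65.5, 105.6 and 26.7 CPM, of which 3 were above the highest naïve mouse. The log2 fold change was 1.57 (SE 0.56, adjusted p = 0.479, edgeR) and fell to 0.87 when withdrawn mouse 1 was left out. The exact permutation test gave p = 0.0974.

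Igfbp6 (ENSMUSG00000023046, chromosome 15 from 102144362 to 102149511, plus strand), which prefers IGF2 over IGF1, had 64.6 to 246.9 CPM in naïve mice (median 122.6 CPM). It had 314.1, 24.2, 197.6, 243.5 and 155.9 CPM in withdrawn mice 1 to 5. Withdrawn mouse 1 was above and withdrawn mouse 2 below all naïve mice, and the log2 fold change was 0.47 (SE 0.47, adjusted p = 0.904, edgeR).

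Igfbp7 (ENSMUSG00000036256, chromosome 5 from 77349240 to 77408041, minus strand), a relative with low affinity for IGFs that is abundant in vessel walls, had 4.76 to 79.7 CPM in naïve mice (median 42.2 CPM). It had 13.96, 6.30, 15.5, 64.5 and 16.9 CPM in withdrawn mice 1 to 5, all within the naïve range, with only mouse 4 above the naïve median. The log2 fold change was -0.80 (SE 0.74, adjusted p = 0.891, edgeR), and exons of Polr2b on the opposite strand share 85 of its 1209 exonic bases.

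Igfbp3 (ENSMUSG00000020427, chromosome 11 from 7206086 to 7213923, minus strand) encodes the main IGF carrier of blood. Naïve mice had 11.8 to 32.4 CPM (median 18.7 CPM) and withdrawn mice 1 to 5 had 9.52, 18.6, 17.5, 13.04 and 14.1 CPM. No withdrawn mouse was above the naïve median and mouse 1 was below all naïve mice, and the log2 fold change was -0.42 (SE 0.34, adjusted p = 0.868, edgeR).

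Counted together, 9 of the 10 genes passed the low-count filter, with 6 higher and 3 lower after withdrawal and a median log2 fold change of 0.47. Over all tested genes the median was 0.021, and 51.8% were higher. With the call threshold set at 0.05 for the adjusted p and 0.6 for the size of the log2 fold change, edgeR called 0 of the 9 (background 0.00585% of tested genes) and DESeq2 called 1, Igfbp5 (background 1.66% of genes with an adjusted p). An unadjusted p under 0.05 in edgeR was found for 3, Igfbp2, Igfbp4 and Igfbp5, all of them higher binding proteins, where 7.22% of tested genes had such a p and 5% were also higher. None of the 10 separated the groups completely (background 0.983%, or 0.696% with all withdrawn mice above and 0.287% with all below). In the exact permutation test 1 of 10 had an unadjusted p under 0.05, against 7.88% of tested genes. The genes were not chosen blind to these data, so the counts and shares are a description only.

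**Figure D3:**
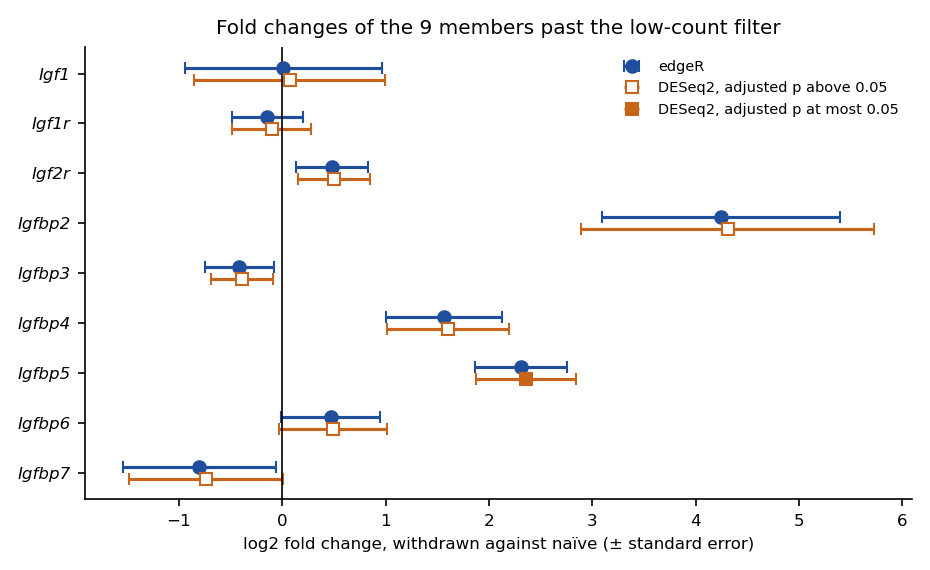
Log2 fold change of withdrawn against naïve mice with its standard error for the 9 genes past the low-count filter, from edgeR (blue circles) and DESeq2 (orange squares, filled where the adjusted p is at most 0.05). Igfbp2, Igfbp5 and Igfbp4 lie furthest to the right, at 4.25, 2.31 and 1.57 in edgeR, and only Igfbp5 is filled.

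Withdrawn mice 1, 3 and 4 were above every naïve mouse for Igfbp2, Igfbp4 and Igfbp5. Withdrawn mouse 5 was so for Igfbp2 and Igfbp5 but not for Igfbp4 (26.7 CPM). The starts of these genes are shown side by side, from 250 bases before to 50 after the RefSeq start site (GRCm38.p6), 5′ to 3′. Capitals mark the letters TATAAA, known as the TATA box, and the letters GGGCGG, known as the GC box, on either strand. Having no letter in common, these motifs cannot overlap. For Igfbp2, the first of 2 RefSeq start sites is shown (chr1:72824230-72824529, plus strand), followed by Igfbp4 (chr11:99040994-99041293, plus strand) and Igfbp5 (chr1:72874816-72875115, minus strand).
Igfbp2: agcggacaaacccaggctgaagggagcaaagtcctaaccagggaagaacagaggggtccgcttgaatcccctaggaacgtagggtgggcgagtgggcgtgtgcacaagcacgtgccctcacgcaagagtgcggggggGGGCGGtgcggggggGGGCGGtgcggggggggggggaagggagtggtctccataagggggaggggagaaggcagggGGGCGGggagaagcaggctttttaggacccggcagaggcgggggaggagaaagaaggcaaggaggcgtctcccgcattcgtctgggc
Igfbp4: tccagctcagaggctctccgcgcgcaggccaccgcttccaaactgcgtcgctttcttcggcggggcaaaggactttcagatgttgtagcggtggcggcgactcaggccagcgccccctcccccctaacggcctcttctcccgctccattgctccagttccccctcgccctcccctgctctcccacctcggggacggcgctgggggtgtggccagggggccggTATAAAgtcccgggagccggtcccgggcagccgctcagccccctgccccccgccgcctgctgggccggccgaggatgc
Igfbp5: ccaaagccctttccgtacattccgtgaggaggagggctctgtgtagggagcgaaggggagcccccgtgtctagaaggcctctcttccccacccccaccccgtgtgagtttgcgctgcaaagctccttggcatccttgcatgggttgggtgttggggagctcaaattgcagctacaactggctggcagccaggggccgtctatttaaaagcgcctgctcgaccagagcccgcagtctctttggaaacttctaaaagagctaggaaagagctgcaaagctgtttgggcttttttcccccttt
The Igfbp2 window held 3 GC boxes and no TATAAA, and the Igfbp4 window held 1 TATAAA, at position -28 from the start site, and no GC box. The Igfbp5 window held neither. Of 32851 such windows in the mouse genome, 13.6% held the TATA letters and 35.7% the GC box. The GC content of the 3 windows was 67%, 71.3% and 56.3%, against a median of 52.7% over all windows. The 3 starts thus shared neither motif. Among the 14 windows of all 10 genes, 2 held a TATAAA (Igfbp4 and Igfbp6) and 6 a GC box.

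The filter and single mice weighed on these results. With no low-count filter edgeR called Igfbp5 (adjusted p = 0.00691) and Igfbp2 (adjusted p = 0.0424), against 0.327% of all genes, and among genes with at least 10 counts in every mouse it called Igfbp5 (adjusted p = 0.0151), against 0.283%. Without withdrawn mouse 2, edgeR called Igfbp2 (log2 fold change 4.54, adjusted p = 0.0189) and Igfbp5 (2.53, adjusted p = 0.00698), 2 of 9 genes against a background of 1.06%. Mouse 2 was the lowest withdrawn mouse for both. With any of the other 10 mice left out edgeR called none of the 9 genes, and the adjusted p of Igfbp5 was between 0.0893 (without naïve mouse 5) and 0.337 (without withdrawn mouse 1). DESeq2 without withdrawn mouse 2, a fit added after seeing the data, called Igfbp2, Igfbp4 and Igfbp5 (background 2.5%), with an adjusted p of 0.0444 for Igfbp4. Without the 3 mice whose labels conflict, which leaves 2 withdrawn mice, the log2 fold changes of Igfbp2, Igfbp4 and Igfbp5 were 4.66, 1.98 and 1.76, and neither edgeR (smallest adjusted p = 0.647, 0% of all genes called) nor DESeq2 (0.929% of genes called) called a member. In DESeq2 without these mice, 5 of the 10 genes had an unadjusted p under 0.05, Igfbp2, Igfbp4, Igfbp5 and Igf2r higher and Igfbp7 lower, against 6.17% of all genes with a p. On the log scale of the permutation test, the difference for Igfbp2 was then 1.00 in place of 3.02, since 1 of the 2 mice left had 0 counts.

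**Figure D4:**
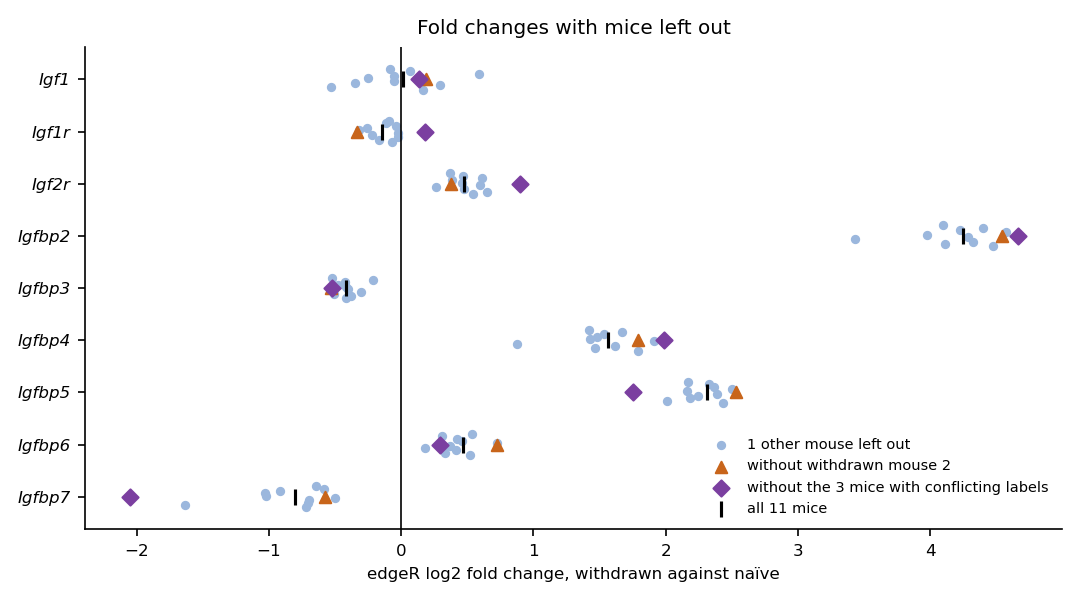
EdgeR log2 fold change of the 9 tested genes with all 11 mice (black bar), with 1 mouse left out (blue dots, orange triangle for withdrawn mouse 2) and without the 3 mice whose labels conflict (purple diamond). Igfbp2, Igfbp4 and Igfbp5 stay above 0 throughout, with Igfbp4 lowest at 0.87, whereas the fold changes of Igf1 fall on both sides of 0.

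In withdrawn mice, fibroblast markers followed the order of some of the binding proteins. The summed CPM of 9 fibroblast markers was 0.0677 to 74.8 (median 21.3) in naïve mice and 1384, 21.1, 688, 957.5 and 229.6 in withdrawn mice 1 to 5. The order of withdrawn mice by this sum, 1, 4, 3, 5 and 2, was also their order for Igfbp2, for Igfbp4 and for Igfbp6, whose levels overlapped between groups. For Igfbp5 the order was 4, 3, 1, 5 and 2, and Igfbp3 was lowest in withdrawn mouse 1 and highest in withdrawn mouse 2. Among naïve mice, Igfbp6 was highest in mouse 5 (246.9 CPM), where the fibroblast sum was lowest. Of the 9 markers, 7 were tested, all 7 were higher in withdrawn mice, and 6 had an unadjusted p under 0.05 with none called in edgeR. The highest withdrawn medians of the list were those of Col1a1, Col1a2 and Ogn, which encode collagen chains and a matrix proteoglycan. They were 150.8, 293.6 and 132.7 CPM, with naïve medians of 3.04, 2.40 and 1.76 CPM. Col3a1, Foxc1 and Dcn had medians of 33.6, 17.5 and 11.95 CPM in withdrawn mice, and 0.280, 2.76 and 2.46 CPM in naïve mice. The remaining listed markers stayed low. Slc6a13 had medians of 1.00 CPM in withdrawn and 0.460 CPM in naïve mice (unadjusted p = 0.446, edgeR). The untested Lum and Aldh1a2 had medians of 0.663 and 0.0706 CPM in withdrawn mice, and 0.228 and 0.207 CPM in naïve mice. The part of fibroblasts in the binding protein results was not tested.

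Some other lists were above the naïve maximum in some of withdrawn mice 1, 3, 4 and 5, with lower sums than the fibroblast list. Astrocyte markers summed to 33.6 to 181.8 CPM in naïve mice and to 350.9, 23.0, 275.7, 388.1 and 174.8 CPM in withdrawn mice 1 to 5. Of its 6 tested markers 4 were lower in withdrawn mice, and in withdrawn mice the highest median was that of Gja1, the connexin 43 gene, which fibroblasts carry too (median 17.7 and 216.7 CPM, log2 fold change 3.61, adjusted p = 0.250, edgeR). The 5 choroid plexus markers summed to at most 5.59 CPM in naïve mice and to 22.8, 1.44, 4.24, 8.33 and 6.21 CPM in withdrawn mice 1 to 5. Ttr, the defining marker of the choroid plexus, reached at most 22.0 CPM.

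The microglial markers Cx3cr1, P2ry12, Tmem119, Csf1r, Aif1 and C1qa together had 0 to 7.17 CPM in naïve mice and 9.38, 6.97, 6.85, 17.1 and 10.4 CPM in withdrawn mice 1 to 5, so that withdrawn mice 1, 4 and 5 were above all naïve mice. Of the 3 of these that were tested, Csf1r and Aif1 were lower (log2 fold changes -0.26 and -0.47) and Tmem119 higher. Tmem119 had at most 1.68 CPM in naïve mice and a median of 7.73 CPM, with a highest value of 14.1 CPM, in withdrawn mice (log2 fold change 3.75, adjusted p = 0.558, edgeR). The defining marker P2ry12 was at no more than 0.928 CPM in any mouse and at 0 in 8 of 11. The part of the astrocyte, choroid plexus and microglial markers in the results was likewise not tested. The 4 mice with the most Igfbp7, naïve mice 1, 2 and 6 and withdrawn mouse 4, were also the 4 with the highest endothelial sums. These were 513.9, 497.1, 766.3 and 624.2 CPM, whereas the other 7 mice had at most 146.3 CPM. The mural list, the other vessel list, did not give the same 4 mice. Its sums there were 37.1, 90.6, 166.9 and 236.1 CPM, and withdrawn mouse 1, with 13.96 CPM of Igfbp7, had 47.0 CPM. The endothelial, excitatory neuron, inhibitory neuron and oligodendrocyte lists had 0 withdrawn mice above the naïve maximum. For the mural list 1 was above it (mouse 4), and for the oligodendrocyte precursor list 2 were (mice 4 and 5). The part of these lists in the results was not tested.

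**Figure D5:**
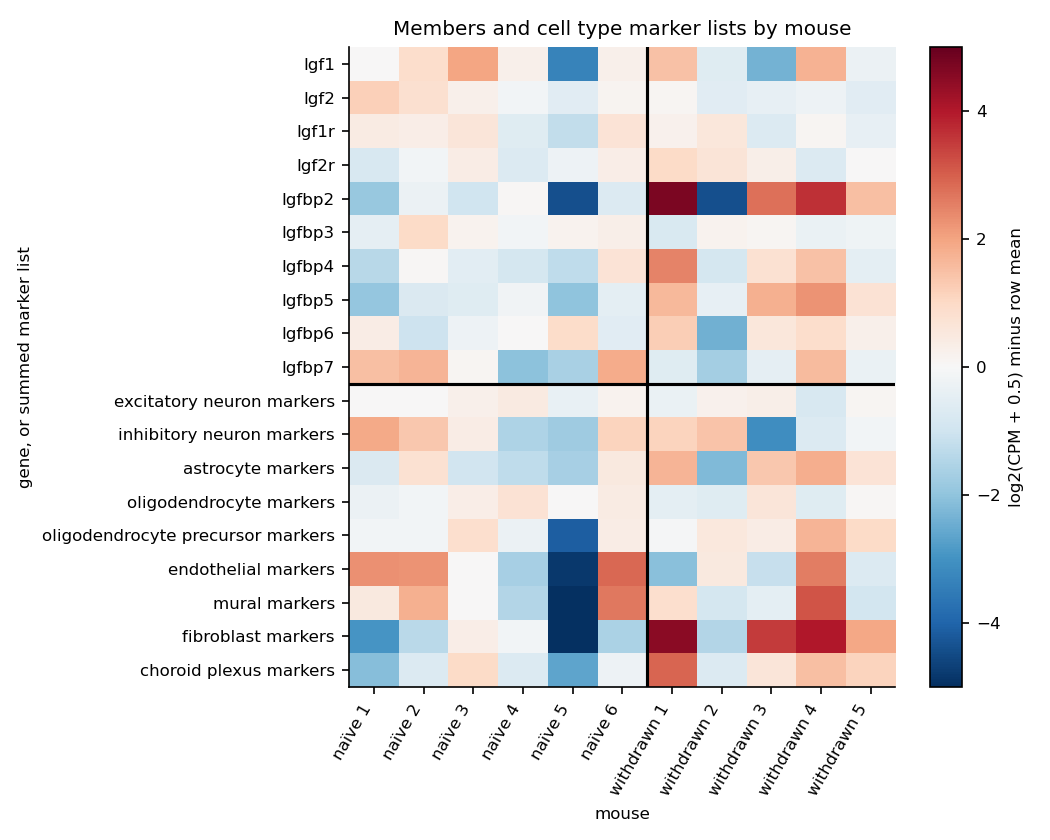
Log2(CPM + 0.5) of the 10 genes and of the summed CPM of 9 cell type marker lists in each mouse, as the difference from the mean of each line, on a color scale that ends at 5 in either direction. Igfbp2 and the fibroblast list are both high in withdrawn mice 1, 3, 4 and 5 and low in naïve mouse 5, and Igfbp7 and the endothelial list are both high in naïve mice 1, 2 and 6 and withdrawn mouse 4.

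Beyond the 10 genes, 43 genes of the insulin and IGF pathway were listed, again with earlier results of these data known. Of these, 33 passed the low-count filter, 19 higher and 14 lower in withdrawn mice, with a median log2 fold change of 0.10. EdgeR called 0 of the 33 and 5 had an unadjusted p under 0.05, 4 higher and 1 lower, where 7.22% of all tested genes had such a p and 5% were also higher. DESeq2 called 3 of the 43, Shc1, Htra1 and Pappa, against 1.66% of genes with an adjusted p. Some of the 43, such as Ins2 and Igfbp1, had no adjusted p, so these shares do not have the same base. Shc1, an adaptor that links receptors to the Ras pathway, had at most 6.72 CPM in naïve mice and 6.19 to 67.7 CPM in withdrawn mice (log2 fold change 3.39, SE 0.85, adjusted p = 0.207 in edgeR and 0.00469 in DESeq2). Grb10, an adaptor that restrains the insulin and IGF1 receptors, had 29.5 to 72.8 and 29.2 to 161.6 CPM (log2 fold change 0.81, adjusted p = 0.651, edgeR). The kinase gene Akt2 had 23.5 to 45.05 and 32.2 to 67.1 CPM (log2 fold change 0.60, adjusted p = 0.683, edgeR).

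Gsk3b, which encodes a kinase that Akt inhibits, was the one of the 5 that was lower. It had 135.9 to 515.9 CPM in naïve mice and 118.9 to 137.2 CPM in withdrawn mice, so that 4 of 5 withdrawn mice were below every naïve mouse (log2 fold change -0.78, SE 0.31, adjusted p = 0.575, edgeR). The highest value belonged to naïve mouse 5. Of the 9 genes of the PI3K and Akt part of the list, 8 were lower in withdrawn mice and 1, Akt2, higher, with a median log2 fold change of -0.083.

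Among the proteases that act on binding proteins, Htra1, a secreted serine protease, had 7.89 to 38.4 CPM in naïve mice and 0.663 to 197.3 CPM in withdrawn mice. Again 4 of the 5 withdrawn mice were above all naïve mice and withdrawn mouse 2 was below them (log2 fold change 2.87, SE 0.80, adjusted p = 0.265 in edgeR and 0.0208 in DESeq2). Pappa, the gene for pappalysin-1, which cuts IGFBP4 and IGFBP5, was singled out after its values were seen. It had at most 8 counts in a naïve mouse and 193, 59, 14, 95 and 26 counts in withdrawn mice 1 to 5. The groups did not overlap, mouse 2 included, at 0.653 to 13.8 against at most 0.493 CPM. With naïve counts this low, the lack of overlap rests on few reads. Among genes past edgeR's low-count filter, 0.696% had all withdrawn mice above all naïve mice. Pappa did not pass that filter, and DESeq2 called it with a log2 fold change of 5.01 (SE 0.93, adjusted p = 3.56e-05). It stayed called in DESeq2 without withdrawn mouse 2 and without the 3 mice whose labels conflict, both added after seeing the data.

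Insulin itself was nearly absent, with at most 38 counts of Ins1 and 2 of Ins2 in a mouse. Its receptor Insr averaged 55.2 CPM in naïve and 64.1 CPM in withdrawn mice, with medians of 66.6 and 59.1 CPM. Insr had counts in only 5 of 6 naïve mice and in 5 of 5 withdrawn mice. Igfbp1, the family member outside the 10 genes, had counts in 2 naïve mice (at most 24) and 1 withdrawn mouse (7), and 0 in the other 8. Of the IGF2 mRNA-binding proteins Igf2bp1, Igf2bp2 and Igf2bp3, which bind the transcript and not the protein, all 3 had positive fold changes (0.61 to 2.04 on the log2 scale) and 0 had an unadjusted p under 0.05 in edgeR, with DESeq2 calling 0 as well.

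Genes with the most similar pattern were sought among all tested genes, by the root mean square difference between log2 CPM deviations from the mean over the 11 mice. Both groups entered this search, so fold changes near that of the gene compared follow from the choice and are not separate results. Igfbp5, whose own deviations had a root mean square of 1.38, was closest to Ahcyl2 (0.456), Vcl (0.474), which encodes the adhesion protein vinculin, and Itgbl1 (0.502). These had log2 fold changes of 2.09, 2.44 and 2.73 (adjusted p = 0.0931, 0.0931 and 0.0883, edgeR). Igf1 (1.93) was closest to Cdh23 (0.569), Fam227a (0.653) and Gm38352 (0.711), none of which differed past the threshold. Igf2 (1.04) was closest to Rnf144b (0.544), 4932443L11Rik (0.612) and Slc9a9 (0.630). With counts as low as those of Igf2 this order of likeness is uncertain.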

How the data were processed

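Each library came from sorted cells of 1 mouse (SMART-Seq HT). The authors trimmed reads with cutadapt, aligned them to GRCm38 with STAR and deposited raw read counts per gene from HTSeq with Ensembl release 91. The strand setting is not given in the sources used here. Symbols, coordinates and exon lengths came from GENCODE M21 on GRCm38 (53360 of 53465 identifiers matched). Rows that name no gene (18.9% to 58.0% of tallied reads) were left out. Depth was 7351567 to 22244869 counts on genes.

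Groups followed title and treatment labels. Counts were normalized by TMM, filtered (filterByExpr, minimum count 10 and total 15; 17093 genes kept) and tested with edgeR 4.0.16 (quasi-likelihood, Benjamini-Hochberg) in R 4.3.3. Calls required 0.05 or less for the adjusted p and a log2 fold change larger than 0.6 in size, thresholds that the study used with DESeq2. CPM used TMM library sizes, and log2 CPM a prior count of 2. Single genes were also compared by the two-sided exact permutation test over the 462 splits of 11 mice. Its p was planned to be adjusted over the 10 genes and is printed unadjusted or adjusted over all genes, because the genes and lists were chosen with earlier results of these data known. Scripts were tested on simulated data.

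Alternatives were other size factors and filters, DESeq2 1.42.0, limma 3.58.1 (voom), a replicate block, mice left out singly, and the 3 mice with conflicting labels left out. Named were all 10 genes, Igfbp1, listed pathway genes with an unadjusted p under 0.05, and the 3 genes nearest in pattern to Igf1, Igf2 and the gene with the smallest p. Pappa, the insulin genes and the IGF2 mRNA-binding proteins were added after their values were seen. One of the listed microglial markers, and the sum that holds it, is not reported here. No pair of libraries within a group agreed within sampling noise (smallest chi-square per degree of freedom 25.6).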

Additional observations from a re-analysis of the deposited data

Results flagged for a closer look

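Within each group the mouse furthest from the others was compared with Dixon's critical value (0.71 for 5 and 0.625 for 6 mice) in 30 sets of log2 CPM values. Of these, 6 were beyond it. Chance alone gives about 1 in 20, or 1.5 of 30.

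Naïve mouse 5 was far from the other naïve mice for 3 genes. It was low for Igf1, with a log2 CPM of -2.25 (1 count), and for Igfbp2, with -2.80 (0 counts), and it was high for Gsk3b, with 9.01 (515.9 CPM). Withdrawn mouse 2 was far below the other withdrawn mice for Igfbp6, with a log2 CPM of 4.61 (24.2 CPM), and for Htra1, with -0.31 (0.663 CPM). Naïve mouse 2 was above the other naïve mice for Htra1, with a log2 CPM of 5.27 (38.4 CPM).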

How the results depend on the processing

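The fitted fold changes (edgeR, DESeq2 or limma) of Igf2r, Igfbp2, Igfbp3, Igfbp4, Igfbp5, Igfbp6 and Igfbp7 kept their direction in every alternative that gave a value, with Igfbp5 between 1.76 and 2.59 and Igfbp2 between 3.08 and 4.73 on the log2 scale. The difference of mean log2 CPM of Igfbp6 in the permutation test, 0.19 with all mice, turned to -0.50 without the 3 mice whose labels conflict, -0.093 without withdrawn mouse 1 and -0.0014 without withdrawn mouse 4. The adjusted p of Igfbp5 ranged from 5.91e-07 to 0.647. EdgeR called 2 of the 10 genes (Igfbp5 and Igfbp2) with no low-count filter, where 137 of 41907 genes were called (0.327%), and 1 (Igfbp5) of 7 genes with at least 10 counts in every mouse (0.283% of all genes). DESeq2 called 1, and 3 without withdrawn mouse 2, an alternative chosen after seeing the data. Leaving out 1 mouse at a time, edgeR called 0 to 2 of the 10 genes and 0 to 2 of the pathway list. Both highest counts came without withdrawn mouse 2. Between 3 and 7 of the pathway list had an unadjusted p under 0.05, and 1 to 3 of the 10 genes by the exact permutation test.

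Of the pathway list, 1 gene (Shc1) was called with no filter, 3 by DESeq2, 3 by DESeq2 without withdrawn mouse 2 and 1 (Pappa) by DESeq2 without the 3 mice whose labels conflict. In that last fit 5 of the 10 genes had an unadjusted p under 0.05, against 6.17% of all genes. By exact permutation 2 of 10 had such a p on CPM and 0 without these 3 mice, where no p below 0.0357 is possible. The cause of these shifts was not tested.

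Igf1, near 0 with all mice, turned to -0.0014 with TMMwsp, -0.038 with no filter and -1.12 in limma voom. Without naïve mouse 1, 4, 5 or 6 it was -0.085, -0.052, -0.25 and -0.058, and without withdrawn mouse 1 or 4 it was -0.35 and -0.53. Over all mice left out singly it ran from -0.53 to 0.58. Igf1r turned to 0.18 in edgeR and 0.28 in DESeq2 without the 3 mice. None of these values passed the test.

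Same-numbered mice were different animals, and the correlations of their deviations were -0.0091, -0.062, -0.20, 0.038 and 0.18, with 1 of 5 numbers highest for its own partner, so they were not treated as pairs. With the replicate block, 0 of the 10 genes were called, 3 of the pathway list had an unadjusted p under 0.05, the log2 fold change of Igfbp5 was 2.35 (adjusted p = 0.460, edgeR), and Igf1r turned to 0.076.

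Depth limits Igf2, Igfbp1 and Pappa in naïve mice, where libraries held at most 14, 24 and 8 counts of these genes. The labels do not tell whether mice shared a sort or a preparation day.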
